A study of Mus musculus with 4 samples.

Results

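The Notch pathway genes measured here were 9 genes: the receptors Notch1, Notch2 and Notch3, the ligands Jag1 and Dll1, the DNA-binding factor Rbpj, and the target genes Hes1, Hey1 and Heyl. They were taken by symbol from the expression tables of 4 lens libraries, and where a symbol stood on several loci the locus of highest mean FPKM was kept. All 9 were found, among 21382 named genes, and 8 of them reached 1 FPKM in at least 1 library, as did 11309 genes in all. Heyl was the exception. The lenses came from transgenic mice on a C57BL/6 background. The transgene of CRYAAN101D mice encodes alpha A crystallin in which an aspartate replaces an asparagine (N101D), mimicking a deamidated lens protein, and that of CRYAAWT mice encodes the normal form. The lines are called N101D and WT here. Each gave 1 library at 2 months and 1 at 4 months of age, so there are 4 groups with 1 library each. Both lines carry an alpha A crystallin transgene, and lenses without a transgene were not analysed here. The promoter of the transgenes, the number of lines per construct, and the number and sex of animals per library are not stated in the labels.

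Notch receptors are membrane proteins that are cleaved when a Delta or Jagged ligand on a neighbouring cell binds them. The released intracellular part enters the nucleus, joins the DNA-binding protein Rbpj and turns on genes of the Hes and Hey families, which encode repressors of transcription. In the developing mouse lens, Jag1 of young fiber cells signals to Notch receptors of the epithelium, and loss of Jag1, Notch2 or Rbpj depletes the dividing epithelial cells and gives small lenses. Notch signalling also shapes the ciliary body, and Notch3 is best known from the muscle cells and pericytes around vessels.

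Because Dll1 and Notch3 are the ligand and the receptor that stood far lower in 1 library, and Jag1 is the ligand that did not, the 250 bases upstream of the annotated start of these genes are shown, with those of Rbpj for a window that holds the Rbpj binding motif. The sequences are from RefSeq (build GRCm38.p6), which is not the build of the expression tables, and are written 5′ to 3′ on the strand of the gene. Of the windows shown, only that of Notch3 has a start that was not found in the GENCODE transcripts of its gene. Of the 9 genes 6 matched the table of promoters, with 8 windows. Hes1, Hey1 and Heyl did not match. Capitals mark the Rbpj core motif TGGGAA or its reverse complement TTCCCA.
Dll1, chr17:15375824-15376073, minus strand: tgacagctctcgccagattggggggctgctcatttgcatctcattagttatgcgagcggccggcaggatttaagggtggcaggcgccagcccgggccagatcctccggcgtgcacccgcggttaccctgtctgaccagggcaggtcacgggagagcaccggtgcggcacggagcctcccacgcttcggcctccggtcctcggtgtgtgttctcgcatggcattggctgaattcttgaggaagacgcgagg
Notch3, chr17:32166891-32167140, minus strand: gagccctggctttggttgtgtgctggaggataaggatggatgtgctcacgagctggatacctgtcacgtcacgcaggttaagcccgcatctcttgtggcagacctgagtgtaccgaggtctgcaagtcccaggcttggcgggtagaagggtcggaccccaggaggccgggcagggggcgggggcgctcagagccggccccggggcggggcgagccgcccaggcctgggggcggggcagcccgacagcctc
Jag1, chr2:137116521-137116770, minus strand: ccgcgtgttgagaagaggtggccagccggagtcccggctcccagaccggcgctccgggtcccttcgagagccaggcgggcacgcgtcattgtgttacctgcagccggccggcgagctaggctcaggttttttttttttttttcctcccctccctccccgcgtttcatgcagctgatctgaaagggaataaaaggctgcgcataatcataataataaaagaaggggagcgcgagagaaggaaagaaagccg
Rbpj, chr5:53590096-53590345, plus strand: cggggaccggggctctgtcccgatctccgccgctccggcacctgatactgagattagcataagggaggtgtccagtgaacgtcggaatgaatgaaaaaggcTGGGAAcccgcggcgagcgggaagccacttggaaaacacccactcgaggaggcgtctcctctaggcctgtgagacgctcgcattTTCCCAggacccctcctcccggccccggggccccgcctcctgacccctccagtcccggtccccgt

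The Rbpj window held the motif 2 times, beginning 149 and 65 bases before the start. A window at another Rbpj start overlaps it and holds 1 match, which is the second of these, and the windows of Notch1, Notch2, Notch3, Jag1 and Dll1 (both of the latter's starts) held none. Searched on both strands, TGGGAA stood in 21.6% of all 32851 promoter windows of this length, and the longer form GTGGGAA, which contains it, in 5.42%. A match of letters is a description only, and its lack says only that these letters are not in the window.

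Levels are given as FPKM, in which fragments are divided by transcript length and library depth, so genes can be compared per length. The low values moved in steps of 1 fragment, which put the libraries at 24.4 M (N101D) and 49.6 M (WT) fragments for 2 months of age and at 53.1 M and 35.0 M for 4 months. The N101D library of 2 months stood apart. It was the shallowest, it listed Xist at 12.9 FPKM against 0.0744 in the WT library of that age, and the Y-linked gene Ddx3y at 0.303 FPKM against 5.51 to 10.03 in the other libraries. At 2 months genotype and sex therefore cannot be told apart, nor can age and sex within N101D. Xist had no usable value in either library of 4 months, so whether these also hold RNA of females cannot be told. Lens fiber genes were abundant in every library (a summed 170543 to 306127 FPKM over the list, with Cryaa at 41937 to 68167), and the lens epithelium genes Pax6 and Foxe3 were listed at 27.7 to 47.5 and 19.8 to 26.4 FPKM. The fiber channel gene Mip had no usable value. Melanin genes were present too, so the libraries hold RNA of pigmented tissue beside lens, but not in equal measure. Dct stood at 3.17 FPKM in the N101D library of 2 months and at 84.2 to 138 in the others. Oca2 differed less, at 6.21 and at 6.44 to 7.81. At 2 months genotype and the amount of such RNA cannot be told apart either. With 1 library per group no difference between single libraries has a replicate check, and the intervals given below cover counting error only.

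Among the receptors, Notch2 was the most abundant in each library. It was listed at 5.49 (N101D) and 7.33 FPKM (WT) at 2 months, and at 6.94 (N101D) and 5.01 (WT) at 4 months. The 4 levels lie within 1.46-fold of each other. Notch1, the receptor of the developing lens epithelium together with Notch2, was listed at 1.61 (N101D) and 1.47 FPKM (WT) at 2 months, and at 1.94 and 1.65 at 4 months. It varied less than Notch2, by 1.31-fold from the lowest to the highest library.

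Notch3 was the receptor that varied. It was listed at 0.104 (N101D) and 1.56 FPKM (WT) at 2 months, and at 1.85 (N101D) and 1.16 (WT) at 4 months. The N101D library of 2 months was far below the other 3 libraries, which lay within 1.59-fold of each other. Its level rests on about 20 fragments (95% Poisson interval 0.0638 to 0.161 FPKM), against about 607, 769 and 318 in the others. Notch3 made up 1.45% of the summed receptor FPKM in that library and 14.8% to 17.2% in the others, and Notch2 made up 76.2% there and 64.1% to 70.7% in the others. In bulk tissue, fewer cells of a type and less RNA per cell cannot be told apart.

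**Figure D1:**
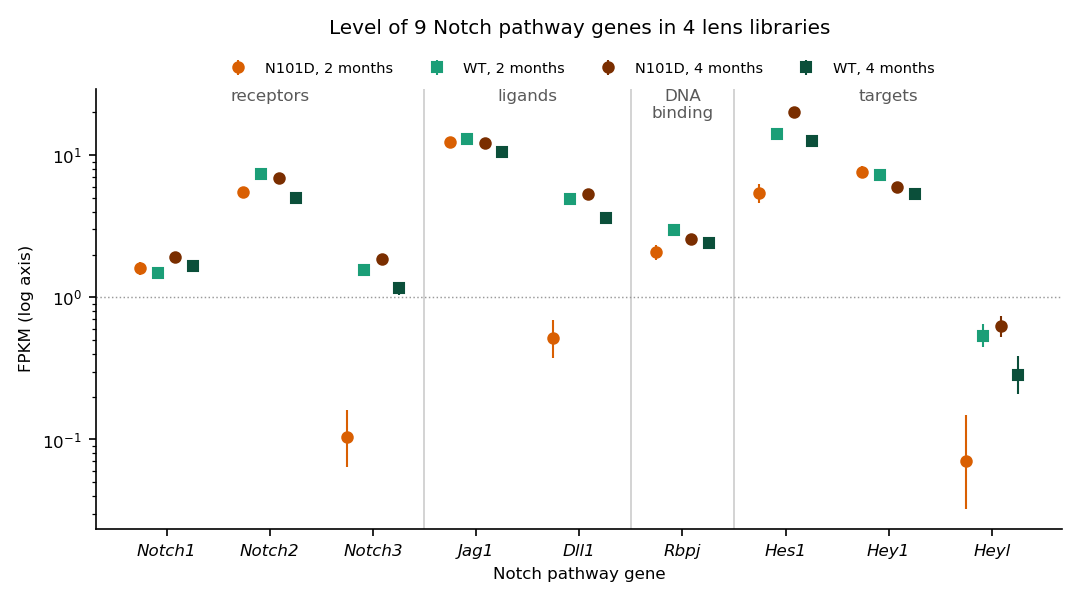
FPKM (log axis) of the 9 Notch pathway genes, grouped by role, in the 4 lens libraries. Each point is 1 library, bars are 95% Poisson intervals of counting error, and the dotted line marks 1 FPKM. The N101D library of 2 months lies far below the others for Notch3, Dll1, Hes1 and Heyl, and beside them for Notch1, Jag1 and Hey1.

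The 2 ligands behaved differently. Jag1, the ligand that lens fibers are known to make, was listed at 12.3 (N101D) and 12.97 FPKM (WT) at 2 months, and at 12.2 and 10.5 at 4 months. It varied by 1.23-fold over the libraries, the least of the 9 genes. Dll1, a Delta ligand with roles in neural and somite development, was listed at 0.513 (N101D) and 4.90 FPKM (WT) at 2 months. The 4-month values were 5.30 (N101D) and 3.64 FPKM (WT). The low value rests on about 43 fragments (0.374 to 0.695 FPKM). Jag1 thus stood 24.0 times above Dll1 in the N101D library of 2 months and 2.30 to 2.90 times above it in the other 3 libraries. The summed ligand FPKM was 12.8 in that library, of which Dll1 made up 4.00%, against 25.7% to 30.3% elsewhere.

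Rbpj, which all Notch receptors use to reach their targets, was listed at 2.07 (N101D) and 2.98 FPKM (WT) at 2 months, and at 2.58 and 2.42 at 4 months. It too was lowest in the N101D library of 2 months, but by a small step: the next lowest library was 1.17 times higher. In all, 5 of the 9 genes (Notch3, Dll1, Hes1, Heyl and Rbpj) had their lowest value in that library, as did 47.7% of the genes analysed.

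Among the targets, Hes1, a repressor that holds progenitor cells undifferentiated, was listed at 5.38 (N101D) and 14.1 FPKM (WT) at 2 months. The 4-month values were 20.1 (N101D) and 12.6 FPKM (WT). It had both the lowest of its 4 levels in N101D at 2 months and the highest in N101D at 4 months. Hey1, a related repressor, was listed at 7.66 and 7.196 FPKM at 2 months and at 6.00 and 5.32 at 4 months, each time in the order N101D, WT. Hey1 was highest in the library in which Hes1 was lowest. Heyl, the third Hey family member and a target studied in vascular muscle, was low in every library, at 0.0711 (N101D) and 0.538 FPKM (WT) at 2 months and 0.627 and 0.286 at 4 months. The lowest of these levels rests on about 8 fragments. Hes1 stood at 0.702 times the level of Hey1 in the N101D library of 2 months and at 1.96 to 3.36 times its level in the others.

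**Figure D2:**
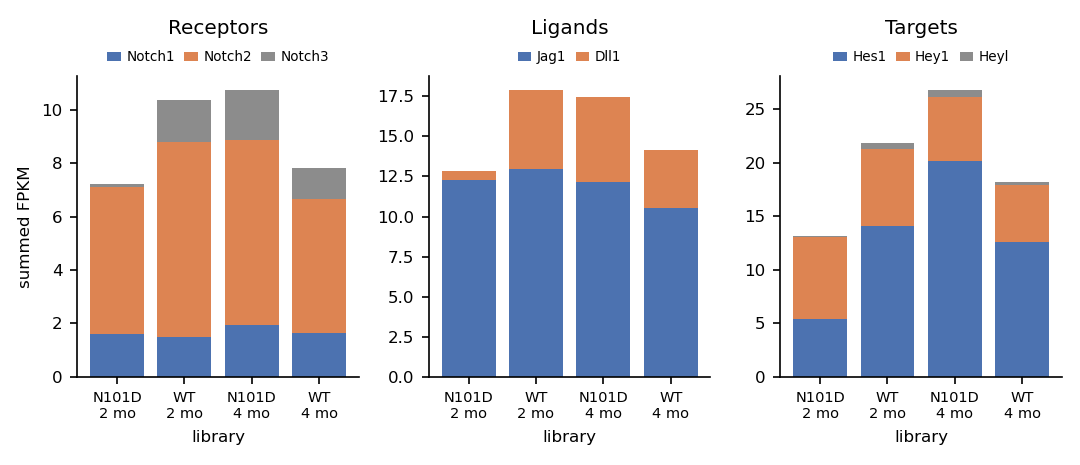
Summed FPKM of receptors, ligands and targets in each of the 4 libraries, as stacked bars that start at 0. In the N101D library of 2 months the Dll1, Notch3 and Hes1 segments are small, while Jag1, Notch1 and Hey1 keep levels like those in the other libraries.

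By level, Hes1 and Jag1 led in the WT library of 2 months and in both libraries of 4 months, followed by Notch2 and Hey1, then Dll1 and Rbpj, then Notch1 and Notch3, with Heyl last. The neighbours Notch2 and Hey1 overlapped in their counting intervals in WT at 2 months (7.10 to 7.57 and 6.71 to 7.71 FPKM), as did Notch1 and Notch3 (1.37 to 1.59 and 1.44 to 1.69) and Hes1 and Jag1 (13.2 to 15.1 and 12.5 to 13.4). At 4 months Hey1 overlapped with Dll1, and Notch1 with Notch3, in N101D, and Hey1 with Notch2 in WT. In the N101D library of 2 months the order was Jag1, Hey1, Notch2, Hes1, Rbpj, Notch1, Dll1, Notch3 and Heyl. There the neighbours Notch2 (5.20 to 5.79) and Hes1 (4.61 to 6.26 FPKM) overlapped, as did Notch3 (0.0638 to 0.161) and Heyl (0.0324 to 0.148 FPKM).

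The main comparison of the study is between the genotypes at each age. At 2 months, 3 of the 9 genes were at least 2-fold lower in N101D on the scale of log2(FPKM + 1), and none was 2-fold higher. Of all 11289 genes with a value, 3.63% were 2-fold lower and 0.407% were 2-fold higher. Notch3 and Dll1 passed the minimum of 1 FPKM only through libraries in which they were high, so the count describes these genes and supports nothing beyond them.

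Dll1 had a log2 difference of -1.96 at 2 months, and 1.00% of all genes had a lower one. As a plain ratio of FPKM it was 9.54-fold lower in N101D (95% counting interval 6.98 to 13.2). Hes1 had a log2 difference of -1.25, a 2.63-fold lower level (2.23 to 3.11), and Notch3 one of -1.21, a 14.9-fold lower level (9.57 to 24.6). The log2(FPKM + 1) scale understates the change of such low genes as Notch3. Heyl was 7.56-fold lower (3.53 to 17.03) with a log2 difference of -0.52. With a pseudocount of 5 FPKM no member was 2-fold different, since Dll1 then stood at -0.84 and Hes1 at -0.88. With quantile normalization Notch3 stood at -0.78, which left 2 members past 2-fold.

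The other 5 genes were nearer to equal at 2 months. Rbpj was listed at 0.696 times its WT level in N101D (0.604 to 0.801) and Notch2 at 0.749 times (0.704 to 0.797). The ratios of Jag1 (0.949, interval 0.894 to 1.01), Notch1 (1.09, 0.956 to 1.24) and Hey1 (1.06, lower bound 0.945) had intervals that include 1. The median log2 difference of all genes was -0.09 here. With equal totals without the crystallins that median moved to -0.46, and Notch1 (-0.21) and Hey1 (-0.34) turned negative. Notch1 was also negative with all loci of the symbol summed, and Jag1 turned to 0.02 with quantile normalization.

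**Figure D3:**
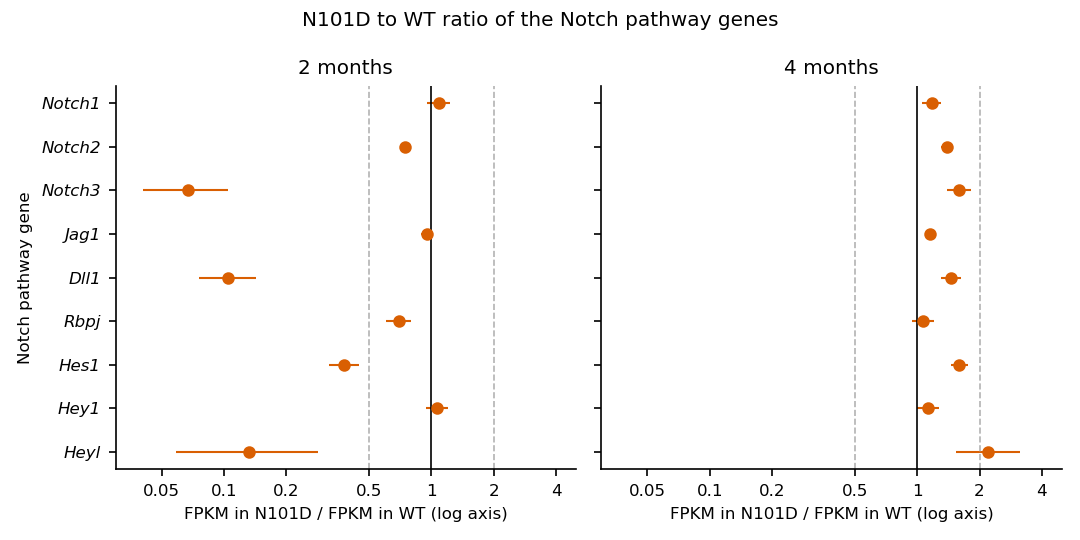
Ratio of FPKM in N101D to FPKM in WT (log axis) for each Notch pathway gene at 2 months and at 4 months, 1 library per genotype and age. Bars are 95% counting intervals and dashed lines mark 2-fold; Notch3, Dll1, Hes1 and Heyl lie below 0.5 at 2 months, and all 9 ratios lie above 1 at 4 months.

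At 4 months all 9 genes were listed higher in N101D than in WT, and none reached 2-fold on the log2(FPKM + 1) scale, against 0.337% of 11282 genes that were 2-fold higher and 0.284% that were lower. Hes1 had the largest log2 difference of the 9, 0.64, as a ratio 1.60 (1.45 to 1.77), and 98.4% of all genes had a lower one. Dll1 followed at 0.44 (ratio 1.46, 1.3004 to 1.64), Notch2 at 0.40 (1.39, 1.31 to 1.47) and Notch3 at 0.40 (1.59, 1.40 to 1.82). Heyl had a ratio of 2.19 (1.54 to 3.12) at its low level. The ratios of Jag1 (1.16) and Notch1 (1.17) were smaller, and the intervals of Hey1 (0.997 to 1.27) and Rbpj (0.947 to 1.202) include 1. The median log2 difference of all genes was 0.03, and each of the 9 signs held under every alternative in which the gene had a value. For Heyl the only such alternative left its value unchanged, so its sign could not turn. Of the 62 measured genes of the wider pathway described below, 20 were listed lower in N101D at 4 months. The share of all genes listed higher was not counted. Some marker lists of other tissues, given below, also had higher or lower medians in N101D at this age. Their part in the values of the 9 genes was not tested.

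From 2 to 4 months in WT lenses, 8 of the 9 genes were listed lower, Notch1 being the exception, and none was 2-fold different. With all loci of the symbol summed, Notch1 was lower too (-0.05). Of 11262 genes, 0.479% were 2-fold lower and 0.675% higher in that comparison, and the median log2 difference was -0.01. Of the 62 measured genes of the wider pathway 37 were listed lower, and the share of all genes listed lower was not counted. Marker lists of other tissues differed too, with medians of -2.77 for blood genes, -0.81 for fibroblast and sclera markers and 0.73 for retina neuron markers. Their part in the member values was not tested. FPKM of the 2 ages may also have been estimated in separate runs. Notch2 had the largest log2 difference, -0.47, with a ratio of 0.683 (0.645 to 0.723). Hey1 had a ratio of 0.739 (0.656 to 0.833), Dll1 of 0.742, Notch3 of 0.744, Jag1 of 0.812, Rbpj of 0.814 and Hes1 of 0.891. In N101D the comparison of ages rests on the library of 2 months described above and shares it with the genotype comparison. Dll1 was 10.3-fold higher at 4 months (7.57 to 14.3), Notch3 17.7-fold (11.4 to 29.1) and Hes1 3.74-fold (3.19 to 4.41). These 3 genes passed 2-fold on the log2(FPKM + 1) scale there, as did 5.21% of 11262 genes on the higher side and 1.10% on the lower. With quantile normalization Notch3 missed 2-fold there (0.86). Hey1 was lower with age in N101D as in WT, with a ratio of 0.783 (0.692 to 0.884), but in N101D it was higher with age, by 0.11 on the log2 scale, once libraries were scaled to equal totals (crystallins left out). In N101D the sign of Jag1 also turned with equal totals (0.43), and those of Notch1 (-0.08) and Rbpj (-0.01) with quantile normalization.

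The only test that the design allows is a limma fit with genotype and age as additive terms, which has 1 residual degree of freedom. Its p-values and SEs rest on the residual of each gene over 4 libraries and on a prior variance drawn from all genes tested. No group has a replicate in it. No gene of 11262 passed an adjusted p of 0.05 for genotype or for age (0.00% for each), while 118 and 1074 had an unadjusted p under 0.05. The 8 members tested all had an adjusted p of 1.00 for genotype. Dll1 had the largest genotype estimate, -0.76 ± 0.58 (SE, 4 libraries), and Hes1 stood at -0.30 ± 0.46. For age Hey1 had the lowest p of the 8 in limma, with -0.34 ± 0.15 and an adjusted p of 0.571. The opposite genotype differences of Dll1, Hes1 and Notch3 at the ages of 2 and 4 months enter the residual of this model.

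The wider pathway was described with 6 lists of 85 genes in all, of which 62 reached 1 FPKM. At 2 months 2 of the 62 were 2-fold lower in N101D and none was higher (3.63% and 0.407% of all genes), with a median log2 difference of -0.14 against -0.09 for all genes. At 4 months 1 was 2-fold higher and none lower, with a median of 0.09 against 0.03. Whether these lists differ from Dll1, Notch3 and Hes1 was not tested.

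The machinery that makes and cuts the receptors was measured in all 4 libraries. Lfng, a fringe enzyme that adds sugars to Notch and tunes its choice of ligand, was the most abundant of its list at 31.0 (N101D) and 22.0 FPKM (WT) at 2 months, and 20.9 and 24.2 at 4 months. It was thus highest in the library in which Dll1 and Notch3 were lowest. Poglut1 and Pofut1, which glucosylate and fucosylate the receptor, had log2 differences of -0.14 and -0.11 at 2 months. Over the 5 measured glycosylation genes the median difference was -0.14 (2 months) and 0.02 (4 months). Adam10, the protease of the first ligand-induced cut, stood at 17.1 and 18.4 FPKM at 2 months and 16.5 and 19.95 at 4 months. The 8 measured genes of cleavage, with the gamma-secretase genes Ncstn and Psenen, had medians of -0.09 and -0.04 and no 2-fold member in any comparison.

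In the nucleus, the 18 measured genes of the Rbpj complex and its corepressors had median differences of -0.13 (2 months) and 0.03 (4 months). Hdac2 differed by 0.09 and -0.38, Ctbp1 by -0.20 and 0.02, Ncor1 by -0.17 and -0.02 and Snw1 by -0.22 and -0.33. None of the 18 was 2-fold different. Rbpjl, a relative of Rbpj, was listed at 0 in all 4 libraries. Among the 16 measured genes of endocytosis and turnover the medians were -0.26 and 0.13. Numb, an inhibitor of Notch, was listed at 1.14 (N101D) and 1.87 FPKM (WT) at 2 months and at 3.68 and 1.27 at 4 months, a log2 difference of 1.05 at 4 months. Nedd4, a ubiquitin ligase, was the most abundant of the list at 92.2 to 105 FPKM. Epn1 (36.3 to 46.1), Cul1 (12.3 to 17.6) and Dtx3 (10.2 to 18.1 FPKM) followed.

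Of the other ligands and ligand-like genes, Cntn1, a contact protein of neural cells that binds Notch, was listed at 0.517 (N101D) and 5.42 FPKM (WT) at 2 months. The 4-month values were 3.86 and 3.58 FPKM. Its low value was in the same library as those of Dll1 and Notch3. Dner stood at 13.7 to 16.3 FPKM in the 4 libraries, and Jag2 at 0.940 to 1.70. Mfap2, a microfibril protein, was lower at 4 months in WT by a log2 difference of -1.22 (15.7 to 6.17 FPKM) and in N101D by -0.75. Notch4 and the ligands Dll3 and Dll4 did not reach 1 FPKM in any library. Dll4 was listed at 0 in the N101D library of 2 months and Dll3 at 0 in the WT library of 4 months. The 5 measured genes of this list had median differences of -0.19 (2 months) and 0.18 (4 months).

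Among the other genes that Notch is known to regulate, 10 of 18 reached 1 FPKM, with medians of -0.20 at 2 months and 0.20 at 4 months. Bhlhe40, a repressor of the same broad family as Hes1, stood at 4.53 (N101D) and 10.2 FPKM (WT) at 2 months (log2 difference -1.02), and at 11.8 and 8.60 at 4 months. Id3, a dominant inhibitor of helix-loop-helix factors, stood at 25.4 and 33.2 FPKM at 2 months and 51.5 and 35.9 at 4 months. Bhlhe40 and Id3 thus had the order of the 4 libraries' extremes that Hes1 had. Hes5, the Hes gene of neural progenitors, did not: it was listed at 2.63 and 2.31 FPKM at 2 months and 3.24 and 2.07 at 4 months. The cyclin gene Ccnd1 (27.4 to 31.5 FPKM) varied little. Id2 (27.8 to 36.0) had log2 differences of 0.10 at 2 months and -0.05 at 4 months. Id1 (16.1 to 23.1) was listed higher in N101D at both ages, by 0.44 and 0.27. Hes2 and Hes3 were listed at 0 in all 4 libraries.

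Genes of lens growth that have been studied with Notch had a median log2 difference of 0.06 at 2 months and 0.09 at 4 months over 12 measured genes. Cdkn1c, the cell cycle inhibitor of differentiating fibers, stood at 113 and 89.7 FPKM at 2 months and 93.5 and 119 at 4 months. Prox1 differed by 0.15 and 0.07, Fgfr3 by 0.19 and 0.10 and Fgfr2 by 0.05 and 0.02 on the log2 scale. Bmp4, a secreted growth factor also made by the ciliary body, was the exception with 0.179 (N101D) and 3.79 FPKM (WT) at 2 months (-2.02), and 4.78 and 3.53 at 4 months. Pax6 stood at 27.7 and 47.5 FPKM at 2 months and 46.5 and 32.9 at 4 months.

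Summed markers of some tissues around the lens were lowest in the N101D library of 2 months, as Dll1, Notch3 and Hes1 were. The 14 markers of pigmented iris, ciliary body and pigment epithelium summed to 45.6 FPKM in the N101D library of 2 months and to 415, 386 and 364 in WT at 2 months, N101D at 4 months and WT at 4 months, with none at 0. Of 13 measured, 7 were 2-fold lower in N101D at 2 months (median -1.15) and 0 were 2-fold different at 4 months (median -0.01). Fibroblast and sclera markers summed to 21.0 FPKM against 153, 137 and 87.8 in the same order (5 of 7 lower at 2 months), and macrophage and leukocyte markers to 0.657 against 6.19, 7.17 and 5.22 (3 of 4). Retinal glia markers summed to 857 against 1448, 1411 and 1328 FPKM (3 of 7 lower). Not every marker followed: the glia markers Vim and Gfap differed by -0.02 and 0.14 at 2 months, and the fibroblast marker Pdgfra by 0.19. No marker of these lists was at 0 in any library. At 4 months the median differences were 0.60 for fibroblast and sclera markers (7 of 7 listed higher in N101D) and 0.30 for macrophage and leukocyte markers (4 of 4). For retinal glia markers the 4-month median was 0.19 (4 of 7).

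Vessel markers matter beside Notch3 and Heyl. The 12 vessel wall and endothelial markers summed to 167 FPKM in the N101D library of 2 months against 173, 231 and 216, with none at 0, a sum led by Acta2 (150 to 200 FPKM). Of 7 measured, 2 were 2-fold lower in N101D at 2 months, Rgs5 and Flt1, and the median was -0.83. Rgs5, a pericyte gene, stood at 0.541 against 4.21 FPKM, and Flt1 at 0.313 against 2.64. Myh11, smooth muscle myosin, stood at 0.0736 against 1.06, which was short of 2-fold on the log2(FPKM + 1) scale (-0.94). Pdgfrb, a receptor of pericytes, stood at 11.5 against 10.1. At 4 months Myh11 was listed at 3.05 (N101D) and 0.911 FPKM (WT). The part of these tissues in the values of Dll1, Notch3, Hes1 and Heyl was not tested.

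Lens epithelium genes summed to 248 (N101D) and 339 FPKM (WT) at 2 months, and to 275 and 256 at 4 months. Of 9, 3 were 2-fold lower in N101D at 2 months (Gja1, Krt18 and Igfbp5), while Foxe3 differed by 0.21, Cdh1 by 0.39 and Itga6 by 0.06, and the median was 0.01. The medians of the lens fiber genes were 0.11 (2 months) and -0.15 (4 months). Retina neuron markers had medians of -0.08 and -0.68 (summed FPKM of 471, 516, 515 and 847 in the order N101D and WT at 2 months, N101D and WT at 4 months). Blood genes summed to 147, 349, 122 and 45.6 FPKM in that order, and cornea and conjunctiva markers to 92.7, 58.6, 151 and 107, with Kera at 0 in the N101D library of 2 months. The median differences of blood genes were -0.90 (2 months) and 1.34 (4 months), and those of cornea and conjunctiva markers -0.83 and 0.56.

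**Figure D4:**
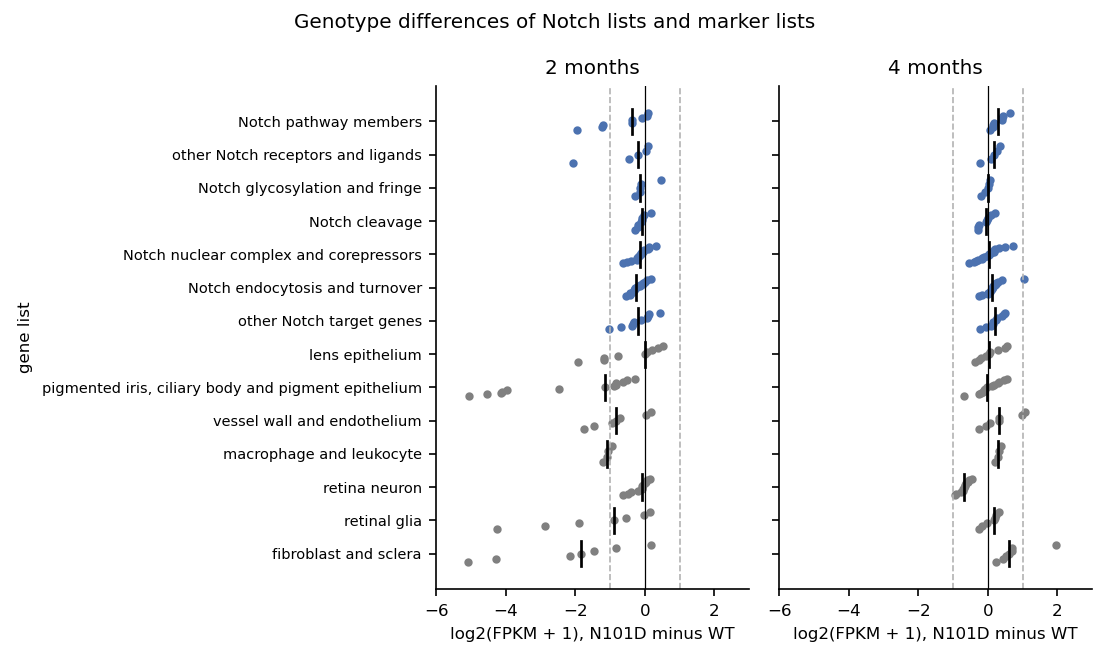
Difference of log2(FPKM + 1), N101D minus WT, at 2 and at 4 months for genes that reached 1 FPKM, by gene list. Each point is 1 gene, black bars are list medians and dashed lines mark 2-fold; Notch lists (blue) lie mostly between the dashed lines, and markers of pigmented tissue, glia and fibroblasts (grey) reach far below them at 2 months.

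The genes with the profile closest to each variable member over the 4 libraries were named by the smallest distance between centred log2(FPKM + 1) profiles, which over 4 libraries is a description only. For Dll1 they included C1qa (distance 0.09) and Rax (0.10). Rax, a transcription factor of the eye field and retina, was listed at 1.47 (N101D) and 8.10 FPKM (WT) at 2 months, and C1qa, a complement gene of macrophages, at 0.0699 and 3.32. For Notch3 they were Cpne8 (0.05), Stim1 (0.08) and Slc13a3 (0.08), and for Hes1 Aifm3 (0.05), Igfn1 (0.09) and Nmnat2 (0.13).

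Each other locus that carries a member's symbol was listed below the locus kept for that gene. Notch1 has a locus over the same span (chromosome 2, 26301246 to 26359342 on mm9) in the block of plus-strand loci, opposite to the gene, at 0.673 and 0.917 FPKM at 2 months and 1.22 and 0.625 at 4 months in the order N101D, WT. The locus kept for Notch1 lies in the block of its own strand, as do those of the other 8 genes. Whether the libraries kept strand is not stated, so sense and antisense RNA of Notch1 cannot be told apart. The kept loci of Dll1 (XLOC_016832, chromosome 17, 15504317 to 15513370), Hes1 (XLOC_014537, chromosome 16, 30065360 to 30067882) and Notch3 (XLOC_017000, chromosome 17, 32257675 to 32303797) are given on mm9. The locus of Jag1 (XLOC_022531) is on chromosome 2, 136907186 to 136942817, and that of Notch2 (XLOC_024811) on chromosome 3, 97817450 to 97954536.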

How the data were processed

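The authors deposited FPKM per locus for each library. Per the submitters' processing notes, TopHat 1.2.0 and Cufflinks 1.0.3 were used with mm9, beside CASAVA 1 and Cuffdiff; no annotation is named in the sources used here. Libraries were TruSeq, per the labels' protocols. Values of status FAIL (289 loci at 2 months, 488 at 4 months) were missing. Both libraries of an age carry the same status per locus, so FPKM of the 2 ages may have been estimated in separate runs. Each symbol took the locus of highest mean FPKM in the 2 blocks that follow the strand. This is also the rule's locus for all 9 members. Symbols turned into dates (35 loci) and 15488 loci without a symbol were left out.

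Depth came from low values of loci between 400 and 3000 bases without a symbol: 87.9%, 94.9%, 88.0% and 93.5% of 2537, 2036, 375 and 2420 values (N101D and WT at 2 months, N101D and WT at 4 months) lay within 0.05 of a whole fragment. Fragments per gene use the longest GENCODE M21 coding transcript and are approximate. Ratio intervals are exact binomial (Clopper-Pearson). Differences use log2(FPKM + 1), and 2-fold means a log2 difference of 1 or more. limma 3.58.1 in R 4.3.3 (trend, Benjamini-Hochberg, two-sided) had 1 residual degree of freedom and a prior of 3.72. It was checked on simulated data in which the genotype effect was the same at both ages. The check therefore does not cover differences that turn with age. All 9 members, the genes of the wider lists at 2-fold, up to 4 abundant examples per list and the 3 nearest profiles were named by rule, and other genes in the text after their values were seen. A gene that the rule names is not reported here. Members and lists were chosen with earlier results of these data known.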

Additional observations from a re-analysis of the deposited data

Results flagged for a closer look

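The direction of the genotype difference was opposite at the ages of 2 and 4 months, with counting intervals of both ratios excluding 1, for 5 of the 9 genes. The log2 difference, N101D minus WT, was -1.96 at 2 months and 0.44 at 4 months for Dll1. It was -1.25 and 0.64 for Hes1, and -1.21 and 0.40 for Notch3. It was -0.52 and 0.34 for Heyl, and -0.36 and 0.40 for Notch2. Over all genes the median log2 difference was -0.09 at 2 months and 0.03 at 4 months. The N101D library of 2 months held the lowest value of 47.7% of the genes analysed. How many of all genes turned in this way was not counted, so the 5 describe these genes only. With 1 library per group the difference between the ages was not tested.

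Of the 6 unused loci that carry a member's symbol, 5 held signal in the N101D library of 4 months at 2 times the WT level or more. The other, of Notch1, stood at 1.22 (N101D) and 0.625 FPKM (WT). In the third block, 4 loci listed with the same coordinates as Notch2 were listed at 0.366, 0.440, 0.359 and 0.363 FPKM, together 1.53 against 0.304 in WT. At 2 months they summed to 0 in N101D and 0.0549 in WT. A short locus beside Notch3 (mm9 chromosome 17, 32256171 to 32256936) had 0.189 (N101D) and 0 FPKM (WT) at 4 months. At 2 months it had 0 (N101D) and 0.364 FPKM (WT).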

How the results depend on the processing

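No paired analysis was possible because the labels give no replicate numbers shared between groups. Leaving out a library removes a single-library comparison or all residual degrees of freedom of the fit, so no such fit was made. Of the differences of single members between libraries under alternatives, 174 moved less than the counting error and 59 moved more, and no 2-fold difference changed sign. The filter settings and the limit to status OK leave a member's difference as it was. So does summing loci for a member with a single locus. Part of the 174 therefore could not move, and the count overstates how steady the values are. Of their limma estimates, none called, 105 kept their sign and 9 turned. Under those same settings an estimate could not turn. With equal totals without the crystallins the genotype estimates of Notch1 (-0.034), Notch2 (-0.19), Jag1 (-0.17) and Hey1 (-0.10) and the age estimates of Notch2 (0.12) and Jag1 (0.088) turned. The age estimate of Rbpj was -0.0015 with a pseudocount of 5 FPKM and -0.12 with quantile normalization, and that of Notch2 was 0.067 with all loci summed. With a pseudocount of 5 FPKM, members at 2-fold numbered 0 for genotype at 2 months (3 as reported) and 1 for age in N101D (3 as reported). With loci of status OK only, where 4 members had a value, there was 1 for each. With quantile normalization there were 2 for each, without Notch3. Genes of the other Notch lists at 2-fold for age in N101D numbered 7 with a pseudocount of 0.1 and 8 with equal totals without the crystallins, against 3, and 0 with a pseudocount of 5. With that pseudocount they numbered 0 for genotype at 2 months, genotype at 4 months and age in WT. They numbered 1 for genotype at 2 months with quantile normalization and 0 at 4 months with a filter at 5 FPKM. All genes at 2-fold for genotype at 2 months numbered 456 as reported, 884 and 124 with pseudocounts of 0.1 and 5, 779 with equal totals, 227 with status OK only and 234 with the 5 FPKM filter. For genotype at 4 months they numbered 70 as reported, then 190 and 17 by pseudocount, 119 with all loci summed and 40 with the 5 FPKM filter. For age in WT they numbered 130 as reported, then 346 and 50 by pseudocount and 81 with status OK only. For age in N101D they numbered 711 as reported, then 1445 and 180 by pseudocount, 1492 with equal totals, 346 with status OK only and 404 with the 5 FPKM filter. In limma 61 genes passed for genotype and 156 for age with equal totals (0 for both as reported), and 1 for age with quantile normalization and with all loci summed. No member was among them, with adjusted p from 0.940 to 1 for genotype and from 0.214 to 1 for age. With equal totals the prior degrees of freedom of limma were infinite, against 3.72 as reported, so the variance model differed along with the scaling. The cause of the changes under these alternatives was not tested. Depth limits Heyl and Notch3 in that library most, at about 8 and 20 fragments.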
